A study of Mus musculus with 10 samples.

Results

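The genes described here are 10 genes of cholinergic transmission in the mouse striatum, out of 47632 gene rows measured by RNA sequencing. They were chosen by name: Chat, Slc5a7, Slc18a3 and Lhx8, which mark cholinergic neurons, Ache and Prima1, which serve the breakdown of acetylcholine, and the muscarinic receptor genes Chrm1, Chrm2, Chrm3 and Chrm4. That choice was made with earlier results of these data known. RNA came from the striatum of 5 R6/2 hemizygous samples and of 5 isogenic wild-type control samples, all harvested at 11 weeks of age. R6/2 mice carry as a transgene the first exon of human huntingtin, with a long CAG repeat and its human promoter, so expression is not confined to striatal cells. Controls lack the transgene. Nothing in the labels ties a library to a separate animal, so the p-values measure only how far these samples spread, and part of that spread may be technical.

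The striatum holds few cholinergic cells, large interneurons that fire tonically and supply most of the local acetylcholine. Choline is taken up by the transporter encoded by Slc5a7, acetylated by choline acetyltransferase (Chat) and loaded into vesicles by the transporter encoded by Slc18a3. Released acetylcholine is split by acetylcholinesterase (Ache), which is held at brain membranes by the anchor encoded by Prima1. It acts on muscarinic receptors, of which those encoded by Chrm1 and Chrm3 couple to the G protein Gq and those encoded by Chrm2 and Chrm4 to Gi/o. The spiny projection neurons, which are the main target cells, carry the Chrm1 receptor widely and the Chrm4 receptor mostly where they also carry the dopamine receptor encoded by Drd1.

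The genes for synthesis and vesicle loading lie in a nested pair. In the GENCODE annotation of GRCm38, Slc18a3 (ENSMUSG00000100241.1, chromosome 14, 32462438 to 32464850, minus strand) is a gene of 1 exon that lies wholly inside Chat (ENSMUSG00000021919.7, chromosome 14, 32408203 to 32465989, minus strand), 1139 bases from the Chat start. The exons of this pair share 0 bases. Of the 10 members, 9 had a RefSeq start with upstream sequence (GRCm38.p6). The bases before the starts of Chat, Slc18a3 and Slc5a7 are shown because these genes were lower in the same libraries. Those of Prima1 are shown because its change on log2(FPKM + 1) was the most negative among the members tested. On log2(FPKM + 0.1) that of Chat was more negative (-3.00, against -2.78 for Prima1). Each run is written 5′ to 3′ along the gene's strand, and bases inside the annotated gene were left out. Capitals mark matches to the motifs listed after the sequences.
Chat, chr14:32465990-32466159, minus strand: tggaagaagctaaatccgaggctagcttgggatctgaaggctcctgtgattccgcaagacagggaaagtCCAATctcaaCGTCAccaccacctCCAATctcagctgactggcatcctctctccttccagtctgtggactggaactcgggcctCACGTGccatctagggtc
Slc18a3, chr14:32464851-32465100, minus strand: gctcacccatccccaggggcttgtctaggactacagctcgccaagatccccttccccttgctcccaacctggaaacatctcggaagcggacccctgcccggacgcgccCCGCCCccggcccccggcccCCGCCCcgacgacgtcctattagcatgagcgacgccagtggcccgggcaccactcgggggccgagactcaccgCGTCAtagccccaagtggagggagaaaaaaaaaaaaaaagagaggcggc
Slc5a7, chr17:54299035-54299284, minus strand: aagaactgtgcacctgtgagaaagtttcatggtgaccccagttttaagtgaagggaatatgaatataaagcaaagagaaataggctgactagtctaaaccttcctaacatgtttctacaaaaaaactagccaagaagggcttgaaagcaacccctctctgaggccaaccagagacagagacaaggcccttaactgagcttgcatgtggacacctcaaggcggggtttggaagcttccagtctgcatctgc
Prima1, chr12:103242151-103242396, minus strand: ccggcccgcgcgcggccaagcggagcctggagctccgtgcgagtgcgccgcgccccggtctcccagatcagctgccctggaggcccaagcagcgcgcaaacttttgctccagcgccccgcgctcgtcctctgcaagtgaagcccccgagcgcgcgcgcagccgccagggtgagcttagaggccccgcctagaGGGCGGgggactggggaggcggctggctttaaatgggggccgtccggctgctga

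The 7 motifs searched, on both strands, were the cAMP response element core TGACG, the E-box CACGTG, the LIM homeodomain core TAATTA, the CCAAT box CCAAT, the GC box GGGCGG, and the left and right parts of RE1, TTCAGCACC and GGACAGCGC. Chat and Slc18a3 each held 1 match to TGACG in the 250 bases upstream, a motif found in 17.8% of the 32851 upstream windows of the same length. Chat also held 1 match to CACGTG, which 6.02% of windows hold, and 2 matches to CCAAT, which 33.8% hold. Slc18a3 held 2 matches to GGGCGG and Prima1 held 1, against 32.7% of windows with at least 1. Slc5a7 held 0 matches to any of the 7 motifs. TAATTA (4.84% of windows), TTCAGCACC (0.301%) and GGACAGCGC (0.304%) were found in 0 of the 9 members. GC content was 66% before Slc18a3 and 73.2% in the Prima1 run, against 54.7% in the Chat run and 45.6% before Slc5a7.

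All values are FPKM as deposited, that is fragments scaled by transcript length and by the mapped total. Levels can be compared between genes as far as the annotated lengths hold. Summed FPKM of nuclear protein-coding genes was 193203 to 202906 in R6/2 and 211209 to 219426 in control libraries. The lowest values fell on steps that give the relative depth of the libraries, as far as the scaling followed depth. With R6/2 1 set to 1, depth was 0.497 to 0.724 in the other R6/2 libraries and 0.515 to 0.736 in controls. For 4 members and for Chrm5, every value was a whole multiple of 1 fragment's worth, so the number of fragments behind it is known, taking the smallest step as 1 fragment. The total number of fragments in a library is unknown. Genes that averaged 1 FPKM or more across all 10 libraries were compared with limma on log2(FPKM + 1), with Benjamini-Hochberg adjustment over 15905 genes, and a gene is called lower or higher below an adjusted p of 0.05. Of all genes tested, 9.11% were called lower, 5% higher and 14.1% in either direction. In bulk tissue, fewer cells of a type and less RNA per cell cannot be told apart. Summed FPKM of 12 spiny projection neuron markers was 225 to 370 in R6/2 and 1697 to 2160 in control libraries, and each of the 12 was above 0 in every library. Markers of neighbouring cortex were also present. Their signal, the mean of 5 standardised marker values, was -0.06 to 1.35 in R6/2 and -1.49 to 0.06 in control libraries. It was lowest in control 1 (-1.46) and control 3 (-1.49) and highest in R6/2 3 (1.35) and R6/2 2 (1.18).

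Genes that define cholinergic neurons fell in R6/2 striatum, Prima1 and Chrm4 fell with them, and Ache, Chrm1, Chrm2 and Chrm3 were not called. Of the 10 members 9 passed the filter on low values. Of these, 5 (Chat, Slc5a7, Lhx8, Prima1 and Chrm4) were lower and 0 higher (limma adjusted p), where 9.11% of all genes tested were lower. Only 2 members, Chat and Slc5a7, were called with the cortical signal as a covariate, and the same 2 without controls 1 and 3. The cortical signal overlaps little between the groups, so a fit with it estimates the group difference less precisely. A call lost in that fit does not by itself show a smaller change. Prima1 lost its call there with a larger change (-3.15, against -2.60 without the covariate). The 9 tested members had a median log2 change of -0.82, beside 0.00103 for all genes tested. As the members were chosen with earlier results of these data known, such comparisons with all genes describe the members and are no test. In 6 members (these 5 and Slc18a3, which lay below the filter) all R6/2 values lay below all control values, as in 8.58% of the genes tested. Chat and Lhx8 averaged under 1 FPKM in R6/2 and passed the filter through their control values.

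**Figure D1:**
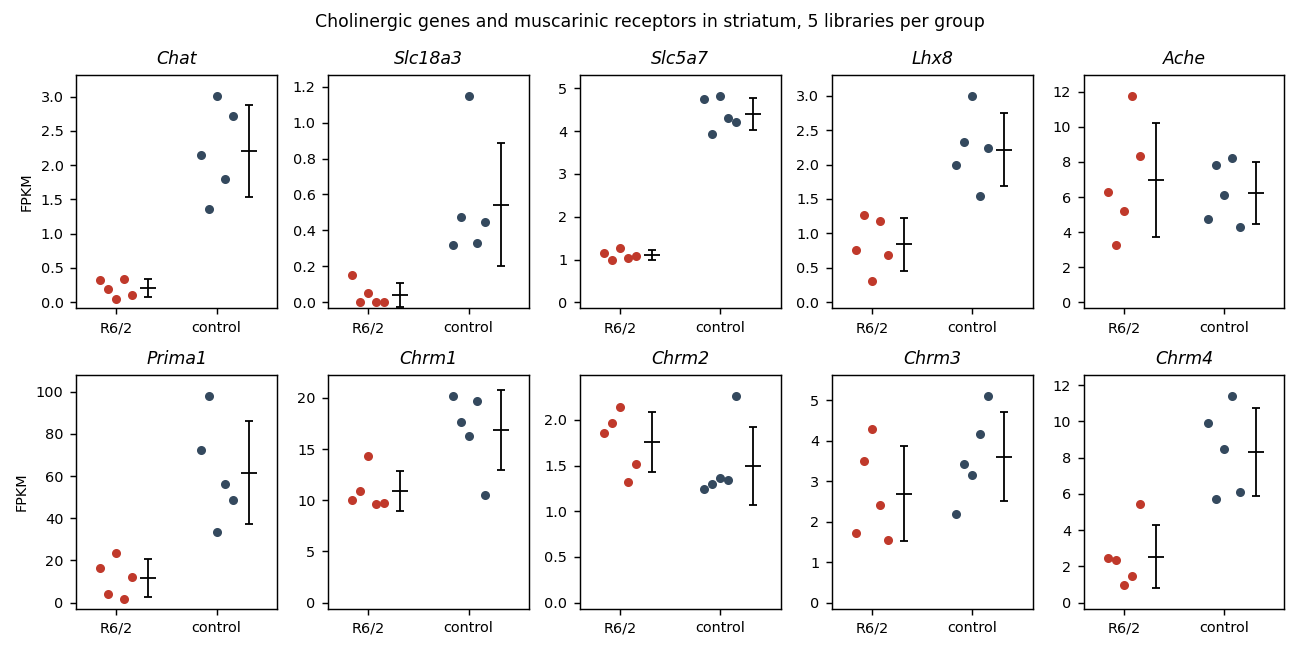
FPKM of the 10 members in each library, with R6/2 on the left and control on the right of each panel. Points are libraries, and the bar beside them is the mean with the SD (n = 5). R6/2 points lie wholly below control points for Chat, Slc18a3, Slc5a7, Lhx8, Prima1 and Chrm4, and the groups overlap for Ache, Chrm1, Chrm2 and Chrm3.

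Chat, the enzyme gene that defines the cholinergic cell, was low in all 5 R6/2 libraries. It was at 0.325, 0.196, 0.0449, 0.346 and 0.101 FPKM in R6/2 libraries 1 to 5, and at 2.15, 1.36, 3.01, 1.8 and 2.72 FPKM in control libraries 1 to 5. Every R6/2 library lay far below the lowest control, control 2. These values stand for 10, 3, 1, 7 and 2 fragments in R6/2, against 48, 27, 68, 32 and 43 in controls. The mean was 0.203 ± 0.133 in R6/2 and 2.21 ± 0.669 FPKM in controls (SD, n = 5), 10.9-fold lower in R6/2. On the log2(FPKM + 1) scale, which understates changes of low genes, the change was -1.40 (SE 0.20, limma adjusted p = 0.00142). A pseudocount of 0.1 FPKM gave -3.00, and 5 FPKM gave -0.47. Chat was called with either.

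Slc18a3, the vesicular transporter gene inside Chat, was also lower, but rests on very few fragments. It was at 0.153 and 0.0530 FPKM in R6/2 1 and R6/2 3, from 4 and 1 fragments, and listed at 0 in the other 3 R6/2 libraries. Controls had 0.318, 0.475, 1.15, 0.332 and 0.447 FPKM, from 6, 8, 22, 5 and 6 fragments. The groups did not overlap (exact permutation test over all splits into 5 and 5, two-sided, p = 0.00794, the smallest it can give). A library listed at 0 allows up to 3 fragments, here 0.175 to 0.231 FPKM, which is below the lowest control. With no filter on low values its log2 change was -0.55 (limma adjusted p = 0.0348). Summed over libraries, Slc18a3 had 5 fragments to 23 of Chat in R6/2 and 47 to 218 in controls, and R6/2 1 alone gave 4 of those 5 and 10 of those 23.

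Slc5a7 (ENSMUSG00000023945.6, chromosome 17, 54273590 to 54299034), the choline transporter gene, varied least among libraries. It was at 1.14, 0.994, 1.27, 1.04 and 1.09 FPKM in R6/2 libraries 1 to 5, and at 4.75, 3.93, 4.82, 4.30 and 4.21 FPKM in controls 1 to 5. The R6/2 values came from 67, 29, 54, 40 and 41 fragments and the control values from 202, 149, 208, 146 and 127. Its coefficient of variation was 9.74% in R6/2 and 8.57% in controls, the lowest among the 10 members in each group. It fell 3.98-fold by the means, with a log2 change of -1.36 (SE 0.09, limma adjusted p = 2.27e-05).

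Lhx8 (ENSMUSG00000096225.7, chromosome 3, 154306294 to 154330659) encodes a LIM homeobox factor needed for the cholinergic fate of forebrain neurons. It was at 0.754, 1.27, 0.307, 1.18 and 0.693 FPKM in R6/2, against 1.99, 2.32, 2.99, 1.54 and 2.24 FPKM in controls. The lowest control, control 4, was close to the highest R6/2 library, R6/2 2. Lhx8 fell 2.64-fold by the means, with a log2 change of -0.82 (SE 0.20, limma adjusted p = 0.0208). The call was lost with the cortical signal as a covariate (-0.62, limma adjusted p = 0.27) and without controls 1 and 3 (-0.74, 0.0799). Within R6/2, the libraries with the most cortical signal had the least Lhx8 (R6/2 3) and the most (R6/2 2), and the part of cortical tissue in this result was not tested.

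Prima1, the anchor gene, fell, and Ache, the gene of the enzyme it holds, was not called. Prima1 (ENSMUSG00000041669.15, chromosome 12, 103196908 to 103242150) was at 16.4, 4.25, 23.3, 1.92 and 12.3 FPKM in R6/2, against 72.2, 97.7, 33.2, 56.2 and 48.8 FPKM in controls. Every R6/2 library lay below every control, but R6/2 libraries differed widely among themselves, with a coefficient of variation of 75.4%, against 39.9% in controls. The mean was 11.6 ± 8.78 FPKM in R6/2 and 61.6 ± 24.6 FPKM in controls (SD, n = 5), and the log2 change was -2.60 (SE 0.57, 95% interval -3.86 to -1.33, limma adjusted p = 0.014). With the cortical signal as a covariate it was -3.15 (limma adjusted p = 0.0583), and without controls 1 and 3 it was -2.75 (limma adjusted p = 0.0686).

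Ache (ENSMUSG00000023328.14, chromosome 5, 137287519 to 137294466) was at 6.26, 3.27, 5.21, 11.7 and 8.34 FPKM in R6/2, against 4.72, 7.81, 6.12, 8.25 and 4.32 FPKM in controls. The groups overlapped, and both the lowest and the highest value were from R6/2. The log2 change was 0.08 (95% interval -0.57 to 0.72, limma adjusted p = 0.904), so a change of either sign within that interval could not be told from none. R6/2 4 had the least Prima1 and the most Ache, while R6/2 2, next lowest in Prima1, had the least Ache. The log2 ratio of Prima1 to Ache within a library was 0.38 ± 1.78 in R6/2 and 3.24 ± 0.62 in controls (SD, n = 5), lower in 5 of 5 R6/2 libraries than in any control (difference -2.86, exact permutation test, two-sided, p = 0.00794, 0.0212 adjusted over 8 ratios). Apart from its offset of 0.1 FPKM, such a ratio does not depend on how a library was scaled.

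**Figure D2:**
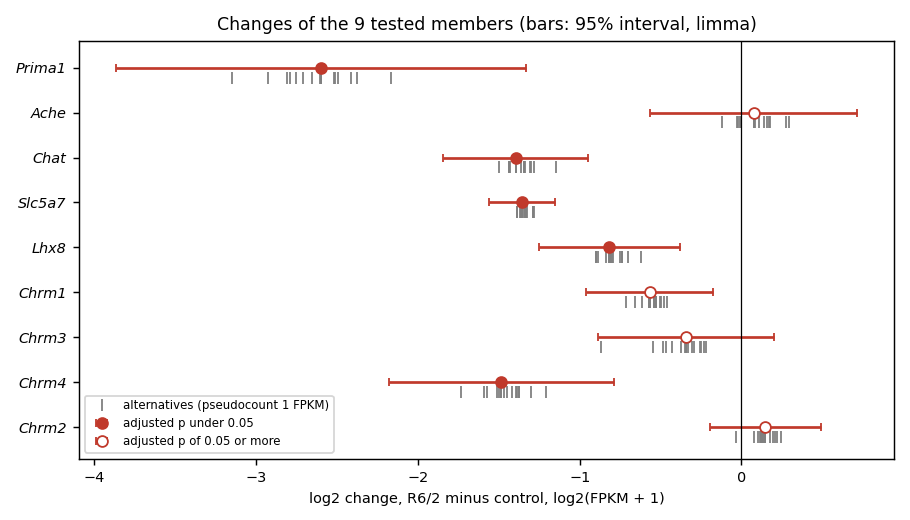
Log2 change (R6/2 minus control, on log2(FPKM + 1)) of the 9 tested members, with the 95% interval from limma. Filled points passed an adjusted p of 0.05, and grey ticks are the values under the alternatives that kept the pseudocount of 1 FPKM. Prima1 (-2.60), Chrm4 (-1.48), Chat (-1.40), Slc5a7 (-1.36) and Lhx8 (-0.82) are filled.

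Among the muscarinic receptor genes, Chrm4 fell and no other was called. Chrm4 (ENSMUSG00000040495.4, chromosome 2, 91927249 to 91928688) is annotated in GENCODE as 1 exon of 1440 bases. Its RefSeq start lies 5060 bases from the start of that exon, so its level relative to other genes depends on the annotation. It was at 2.47, 2.34, 0.947, 1.46 and 5.45 FPKM in R6/2, against 9.93, 5.73, 8.48, 11.4 and 6.13 FPKM in controls. R6/2 5 came close to the lowest control, control 2, and the other 4 R6/2 libraries were under 2.5 FPKM. The fragments behind these values were 36, 17, 10, 14 and 51 in R6/2 and 105, 54, 91, 96 and 46 in controls. The log2 change was -1.48 (SE 0.31, limma adjusted p = 0.0116), 3.29-fold lower by the means. It was -1.21 with the cortical signal as a covariate (limma adjusted p = 0.185) and -1.37 without controls 1 and 3 (0.0966).

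Chrm1 (ENSMUSG00000032773.9, chromosome 19, 8663789 to 8683587), the receptor gene with the highest level here, was not called. It was at 10.1, 10.9, 14.3, 9.67 and 9.70 FPKM in R6/2, against 20.1, 17.7, 16.3, 19.7 and 10.6 FPKM in controls. Control 5 lay among the R6/2 values, and the other 4 controls lay above all of them. The log2 change was -0.57 (95% interval -0.96 to -0.17, limma adjusted p = 0.0606). It was called without control 5 (-0.72, limma adjusted p = 0.00624), without R6/2 3 (-0.66, 0.0428) and with a minimum mean of 5 FPKM (-0.57, 0.0479), and it was not called with the cortical signal as a covariate (-0.61, 0.253).

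Chrm3 and Chrm2 were at low levels with overlapping groups. Chrm3 (ENSMUSG00000046159.15, chromosome 13, 9875486 to 10360847) was at 1.73, 3.49, 4.29, 2.4 and 1.54 FPKM in R6/2, against 2.18, 3.41, 3.15, 4.17 and 5.09 FPKM in controls (log2 change -0.34, 95% interval -0.89 to 0.20, limma adjusted p = 0.413). R6/2 2 and R6/2 3, the R6/2 libraries with the most cortical signal, had the most Chrm3 of that group, and with that signal as a covariate its log2 change was -0.87 (limma adjusted p = 0.0818). Chrm2 (ENSMUSG00000045613.9, chromosome 6, 36388084 to 36528414) was at 1.85, 1.96, 2.14, 1.32 and 1.52 FPKM in R6/2, against 1.24, 1.29, 1.37, 1.34 and 2.26 FPKM in controls. Control 5 was above every R6/2 library while the other controls lay at the low end (log2 change 0.15, 95% interval -0.19 to 0.49, limma adjusted p = 0.574). Chrm5, the remaining muscarinic receptor gene and no member, had 1 fragment each in R6/2 1 and R6/2 4 and 0 in the other R6/2 libraries, against 1, 1, 8, 2 and 0 in controls 1 to 5, too few to compare. The exons of Chrm1, Chrm2 and Ache share 329, 142 and 98 bases with genes on the other strand, and no source used here gives the strand setting.

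**Figure D3:**
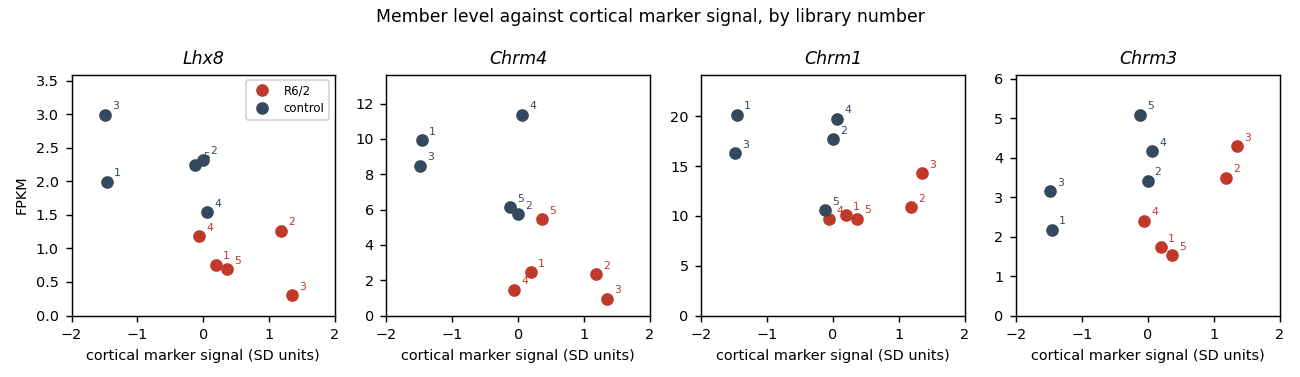
FPKM of Lhx8, Chrm4, Chrm1 and Chrm3 (y axis) against the cortical marker signal of each library (x axis, mean of 5 standardised log2 marker values), with R6/2 in red and control in blue and the library number beside each point. Controls 1 and 3 stand apart at -1.46 and -1.49, and R6/2 2 and R6/2 3 at 1.18 and 1.35. The other 6 libraries lie between -0.12 and 0.36.

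Ratios within a library show how far members moved together. Of 8 ratios tested within libraries, the log2 ratio of Lhx8 to Chat was 1.64 ± 0.47 in R6/2 and 0.03 ± 0.41 in controls (SD, n = 5), higher in 5 of 5 R6/2 libraries than in any control (difference 1.61, exact permutation test, two-sided, p = 0.00794, 0.0212 adjusted). The log2 ratio of Chrm2 to Chat was 2.72 ± 0.86 in R6/2 and -0.51 ± 0.41 in controls, likewise without overlap (difference 3.24, exact permutation test, adjusted p = 0.0212). Chat was at most 0.346 FPKM in R6/2 and at least 1.36 FPKM in controls, while Chrm2 lay within 1.24 to 2.26 FPKM throughout. The separation of Chrm2 to Chat therefore follows from the Chat values alone and is no further test. The offset of 0.1 FPKM is about as large as some R6/2 values of Chat, and with 1 FPKM in its place the differences were 0.58 for Lhx8 to Chat and 1.54 for Chrm2 to Chat. Slc5a7 to Chat was 2.12 ± 0.78 in R6/2 and 1.01 ± 0.37 in controls (difference 1.10, exact permutation test, adjusted p = 0.0317), but 0.0389 with an offset of 1 FPKM in place of 0.1 (adjusted p = 0.81). It was also not called without control 1, 3, 4 or 5 (exact permutation test, adjusted p up to 0.0794). Without controls 1 and 3, the 4 ratios that had passed gave adjusted p-values of 0.0714 to 0.171 (exact permutation test), with few splits left among 8 libraries.

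Relative to Chrm1, Chrm4 lay below every control in 4 of 5 R6/2 libraries, and the difference did not pass over the 8 ratios. The log2 ratio of Chrm4 to Chrm1 was -2.28 ± 1.07 in R6/2 and -1.02 ± 0.34 in controls (difference -1.26, exact permutation test, adjusted p = 0.0508), and it passed without R6/2 5 (-1.62, 0.0212). Chrm4 to Drd1 was -1.74 ± 0.59 in R6/2 and -2.20 ± 0.33 in controls (difference 0.46, adjusted p = 0.19, exact permutation test). With an offset of 1 FPKM that difference was 0.71 (exact permutation test, adjusted p = 0.0381). Such an offset exceeds the lowest R6/2 value of Chrm4, 0.947 FPKM, and weighs less on Drd1, at 5.15 to 9.86 FPKM in R6/2. It thus raises the R6/2 ratio, which cannot show whether Chrm4 fell less than Drd1. Chrm3 to Chrm1 was -2.07 ± 0.44 in R6/2 and -2.22 ± 0.76 in controls (difference 0.15, exact permutation test, adjusted p = 0.714). Slc18a3 to Chat was -1.08 ± 0.84 in R6/2 and -1.92 ± 0.55 in controls (difference 0.84, exact permutation test, adjusted p = 0.138), a ratio in which the offset of 0.1 FPKM is larger than most R6/2 values of Slc18a3. With an offset of 1 FPKM its difference was 0.85 (exact permutation test, adjusted p = 0.0212). That offset is larger than every R6/2 value of Slc18a3. Without an offset, summed fragments gave 21.7 Slc18a3 per 100 Chat in R6/2, from only 5 Slc18a3 fragments, and 21.6 in controls.

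**Figure D4:**
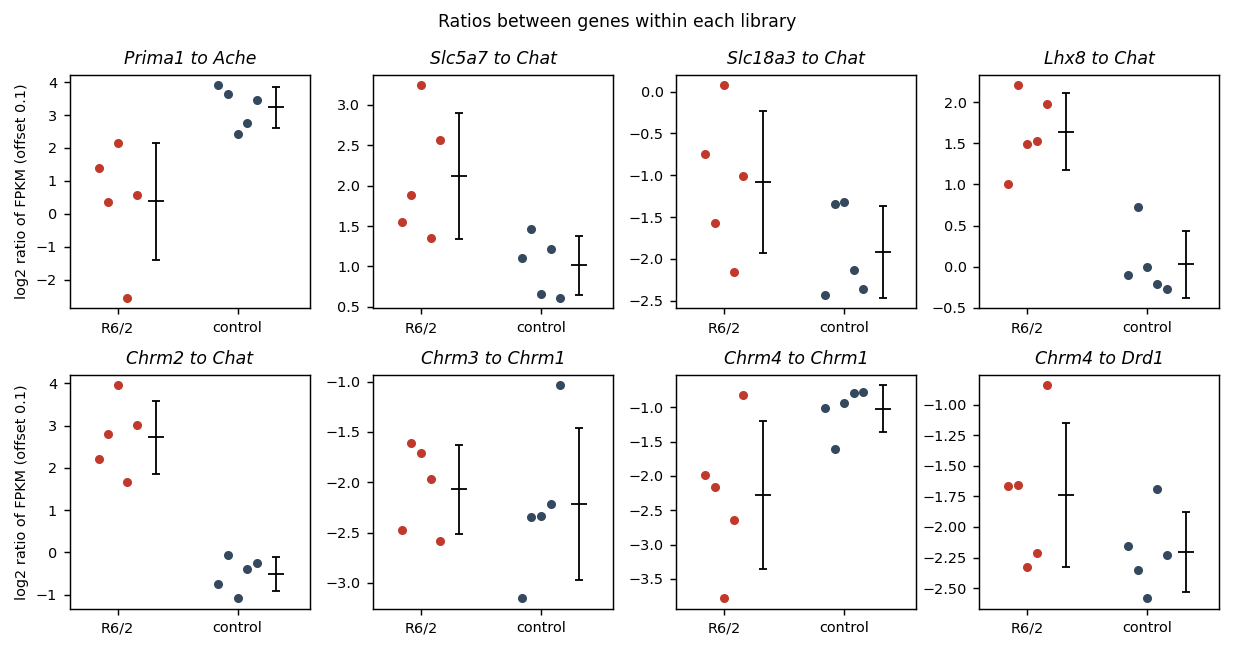
Log2 ratio of FPKM between 2 genes within each library (offset 0.1 FPKM), with R6/2 on the left and control on the right. Points are libraries, and bars are the mean with the SD (n = 5). The groups are apart for Prima1 to Ache (difference -2.86), Lhx8 to Chat (1.61) and Chrm2 to Chat (3.24).

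In R6/2 the means ran Prima1 (11.6 FPKM), Chrm1 (10.9), Ache (6.97), Chrm3 (2.69), Chrm4 (2.53), Chrm2 (1.76), Slc5a7 (1.11), Lhx8 (0.84), Chat (0.203) and Slc18a3 (0.0413). In controls they ran Prima1 (61.6 FPKM), Chrm1 (16.9), Chrm4 (8.33), Ache (6.24), Slc5a7 (4.40), Chrm3 (3.60), Lhx8 (2.22), Chat (2.21), Chrm2 (1.5) and Slc18a3 (0.544). Neighbours in these orders overlapped in range except Chrm2 and Slc5a7 in R6/2, and Prima1 and Chrm1, and Chrm2 and Slc18a3, in controls.

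Other genes of the cholinergic neuron were lower in part. Like the members, the gene lists used from here on were chosen with earlier results of these data known. Of 8 further genes 5 passed the filter, and 3 were lower (60%, beside 9.11% of all genes tested) and 0 higher (limma, median log2 change -0.74). Of these 3, Slc17a8 and Nkx2-1 averaged under 1 FPKM in R6/2 and passed the filter through their control values. Slc10a4, an orphan transporter of cholinergic vesicles, averaged 1.2 ± 0.693 FPKM in R6/2 and 4.12 ± 1.14 FPKM in controls (SD, n = 5, log2 change -1.26, limma adjusted p = 0.00807). Slc17a8, the vesicular glutamate transporter gene that striatal cholinergic neurons also use, averaged 0.609 ± 0.149 FPKM in R6/2 and 2.13 ± 0.327 FPKM in controls (log2 change -0.96, limma adjusted p = 0.00188). Nkx2-1, a homeobox gene of the lineage, averaged 0.984 ± 0.405 FPKM in R6/2 and 2.29 ± 0.486 FPKM in controls (log2 change -0.74, limma adjusted p = 0.0242). Isl1, a LIM homeobox gene that spiny neurons of the direct pathway share, was at 3.42 ± 1.49 FPKM in R6/2 and 3.79 ± 1.42 FPKM in controls (limma adjusted p = 0.79). With the cortical signal as a covariate, as without controls 1 and 3, only Slc17a8 of the 3 was called.

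Of 13 tested genes of choline supply and acetylcholine breakdown, 2 were lower (15.4%, beside 9.11% of all genes tested) and 0 higher. The choline transporter-like gene Slc44a1 averaged 25.8 ± 3.48 FPKM in R6/2 and 35.8 ± 2.36 FPKM in controls (SD, n = 5, log2 change -0.47, limma adjusted p = 0.0112), and Gpcpd1, a glycerophosphocholine phosphodiesterase gene, showed a log2 change of -0.64 (0.0321). Neither was called with the cortical signal as a covariate (limma adjusted p = 0.107 and 0.0772). After protein-coding genes were rescaled to 1 total, 1 gene of the list was higher and 1 lower. Bche, which encodes the related butyrylcholinesterase, showed a log2 change of -0.17 (limma adjusted p = 0.769). Of 15 nicotinic receptor genes and partners only 5 passed the filter, and 2 of these were lower (40%, beside 9.11% of all genes tested). Lynx1, a membrane-anchored modulator of nicotinic receptors, averaged 14.3 ± 2.38 FPKM in R6/2 and 39.3 ± 4.90 FPKM in controls (log2 change -1.40, limma adjusted p = 0.00012). The subunit gene Chrna7 averaged 3.80 ± 0.568 FPKM in R6/2 and 6.01 ± 1.01 FPKM in controls (log2 change -0.54, limma adjusted p = 0.0184), and was not called without controls 1 and 3 (0.0972). Chrnb2 showed a log2 change of 0.32 (limma adjusted p = 0.148) and Chrna4 of 0.14 (0.749).

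Downstream of the Gq-coupled receptors, 6 of 12 tested genes were lower (50%, beside 9.11% of all genes tested) and 0 higher. Among them, the phospholipase gene Plcb1 averaged 49.2 ± 8.62 FPKM in R6/2 and 103 ± 8.18 FPKM in controls (SD, n = 5, log2 change -1.06, limma adjusted p = 0.000468), and the inositol trisphosphate receptor gene Itpr1 averaged 46.0 ± 8.11 FPKM in R6/2 and 136 ± 22.7 FPKM in controls (log2 change -1.55, 0.000155). The kinase gene Prkcb showed a log2 change of -1.24 (limma adjusted p = 4.56e-05). Kcnq3 and Kcnq5, subunits of the potassium current that Gq-coupled muscarinic receptors close, had log2 changes of -0.72 and -0.78 (limma adjusted p = 0.00103 and 0.000405). The G protein genes themselves were not called, with a log2 change of 0.11 for each of Gnaq and Gna11 (limma adjusted p = 0.537 and 0.665).

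On the Gi/o arm 3 of 12 genes were lower and 3 higher, where 9.11% of all genes tested were lower and 5% higher. The adenylyl cyclase gene Adcy5 (log2 change -2.20, limma adjusted p = 3.06e-05) and the G protein regulator genes Rgs4 (-2.34, 1.12e-05) and Rgs9 (-2.94, 2.07e-05) were lower, and Rgs9 is also among the spiny neuron markers. The potassium channel gene Kcnj3 averaged 17.9 ± 3.62 FPKM in R6/2 and 8.40 ± 2.12 FPKM in controls (SD, n = 5, log2 change 1.02, limma adjusted p = 0.00512). Kcnj6 (0.73, 0.0243) and Gnai1 (0.47, 0.0316) were higher too, but were not called with the cortical signal as a covariate (limma adjusted p = 0.373 and 0.407) or without controls 1 and 3 (0.0599 and 0.157).

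**Figure D5:**
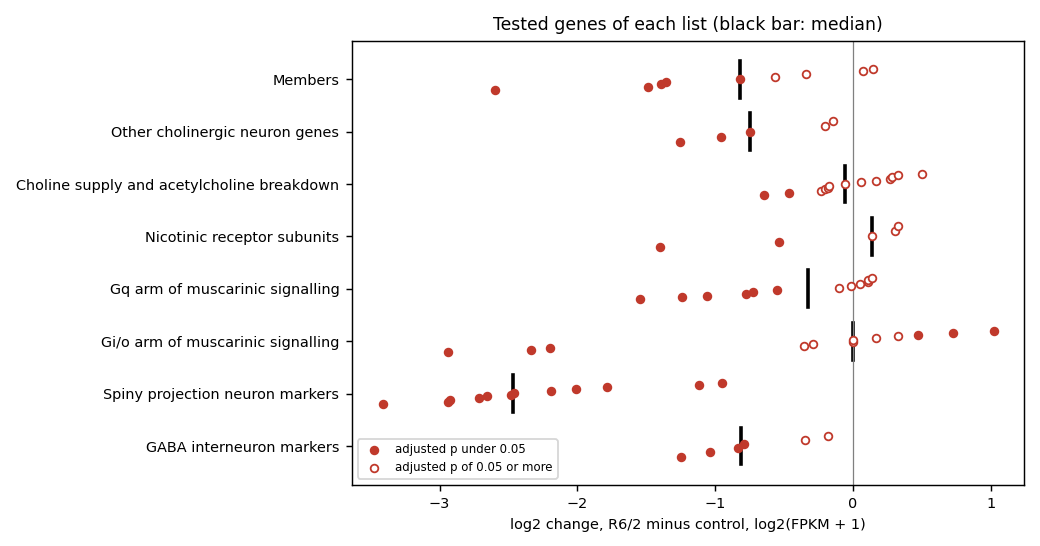
Log2 change (R6/2 minus control, on log2(FPKM + 1)) of the tested genes of 8 lists, with the median of each list as a black bar. Filled points passed an adjusted p of 0.05. The medians run from -2.47 for spiny projection neuron markers and -0.82 for the members to 0.14 for nicotinic receptor genes.

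The genes most like the members in profile were found by the root mean square difference, over the 10 libraries, of log2(FPKM + 1) minus the control mean. They were Rgs7bp (0.0868) and Vat1l (0.0973) for Slc5a7, and Zswim6 (0.153) and Spock3 (0.176) for Chat. For Lhx8 they were Papss2 (0.131) and Dlx1 (0.144), and for Chrm4 Ptpn5 (0.323) and Htr1b (0.343). For Chrm1 they were R3hdm4 (0.129) and Chrna7 (0.135), for Chrm2 Abhd18 (0.0931) and Khdrbs3 (0.0969), and for Chrm3 Gfra2 (0.184) and Myl6 (0.192). Ache was nearest to Exosc4 (0.245). The distances were widest for Prima1, to Rpsa-ps10 (0.853) and to Gpr139 (0.905).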

How the data were processed

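Striatal RNA of 5 R6/2 and 5 control samples was purified, amplified and sequenced on an Illumina instrument, per the labels' protocols. The authors deposited FPKM values in 1 table with a column per library. STAR 2.4.0, Cufflinks and Cuffdiff with the build GRCm38 are named in the submitters' processing notes; their roles, the annotation release and the strand setting are not given in those notes or the labels as used here. Columns were matched to samples by the names in the labels (0 unmatched), and 47220 of 47632 IDs to symbols in GENCODE M21, 39102 of them in the same version. The version of the Chat, Slc5a7 and Chrm3 IDs differs from that in M21.

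Low FPKM values lay on steps. Of 12916 values in 2879 genes with means of 0.1 to 0.3 FPKM, 65.5% lay within 0.05 of a whole multiple of the gene's lowest value after scaling, where evenly spread values would give 10%. Fragments were read off where all 10 values lay within 0.02 of whole numbers (largest distance 0.000262). Floors cover counting error only.

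limma 3.58.1 (R 4.3.3, trend, 8 residual degrees of freedom) was fitted to log2(FPKM + 1), two-sided, on 15905 genes averaging 1 FPKM or more, and tested on simulated data. Single values and 8 ratios (offset 0.1 FPKM) were compared with exact permutation tests over 252 splits. Alternatives changed the pseudocount, the filter, the scaling, the trend and the libraries, and added a cortical signal or a replicate block; leaving out controls 1 and 3 was chosen after seeing the data. The members and gene lists were chosen with earlier results of these data known. Named are all members, Chrm5, Drd1, up to 4 genes of each list with the smallest p, and up to 2 genes nearest to each member in profile, except a few that are not reported here; Isl1, Bche, Chrna4, Plcb1, Kcnq3, Gnaq, Gna11, Kcnj6, Gnai1, Pvalb and Emx1 were chosen after their values were seen. Sequences are from RefSeq (GRCm38.p6).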

Additional observations from a re-analysis of the deposited data

Results flagged for a closer look

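Of 36 groups of 5 values checked (10 members and 8 ratios in 2 groups), 5 held a library far from the other 4, by Dixon's test at the 95% level, where chance flags about 1 group in 20. Chrm1 was at 14.3 FPKM in R6/2 3, where the other R6/2 libraries had 9.67 to 10.9. Slc18a3 was at 1.15 FPKM in control 3, where the other controls had 0.318 to 0.475. Chrm2 was at 2.26 FPKM in control 5, where the other controls had 1.24 to 1.37. In control 2 the log2 ratio of Lhx8 to Chat was 0.73, where the other controls had -0.26 to -0.01, and that of Chrm4 to Chrm1 was -1.61, where they had -1.01 to -0.78. What sets these libraries apart was not tested.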

How the results depend on the processing

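The calls of Chat and Slc5a7 held under all 19 alternatives. Ache, Chrm2 and Chrm3 were called under 0 alternatives, of 20 for Ache and 19 each for Chrm2 and Chrm3. Slc18a3 was lower under its 12 alternatives. Its groups do not overlap, so leaving out libraries could not change that, and those alternatives do not test it. Over all genes, 795 were higher and 1449 lower. With the cortical signal as a covariate these counts were 159 and 596, without controls 1 and 3 they were 310 and 810, and with protein-coding genes rescaled 1522 genes were higher, with a shift of the median gene of 0.093. Relative to that shift, Chat changed by -1.44 and Prima1 by -2.58. Lhx8 was not called with the cortical signal (-0.62), nor without controls 1 and 3 (-0.74), which also held for Prima1 (-3.15 and -2.75) and Chrm4 (-1.21 and -1.37). Chrm1 was called with a minimum mean of 5 FPKM (-0.57), and leaving out 1 library at a time gave it -0.72 to -0.50. For Ache that range was -0.12 to 0.28, with -0.0225 without controls 1 and 3. Chrm2 had -0.036 with the cortical signal. The cause of these differences was not tested.

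Without controls 1 and 3, which leaves 3 controls, none of the ratios passed (Prima1 to Ache -2.90, Slc5a7 to Chat 1.02, Lhx8 to Chat 1.56, Chrm2 to Chat 2.97), and Chrm3 to Chrm1 was -0.20. An offset of 1 FPKM gave 0.0389 for Slc5a7 to Chat, which no longer passed. It gave 0.85 for Slc18a3 to Chat and 0.71 for Chrm4 to Drd1, which then passed (exact permutation test, adjusted p = 0.0212 and 0.0381). That offset is larger than every R6/2 value of Slc18a3, so the ratio cannot show whether Slc18a3 fell less than Chat. In R6/2 it also weighs more on Chrm4 than on Drd1, so it cannot show whether Chrm4 fell less. Lhx8 to Chat (0.58) and Chrm2 to Chat (1.54) became smaller and still passed. Leaving out 1 library at a time gave 0.82 to 1.3 for Slc5a7 to Chat, -0.0882 to 0.44 for Chrm3 to Chrm1 and -1.62 to -0.88 for Chrm4 to Chrm1.

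The labels do not say whether the replicate numbers pair the libraries. Deviations of same-numbered libraries correlated at -0.0528 to 0.0495, and 1 of 5 R6/2 libraries correlated best with its own number. These values do not settle whether a pairing exists. With the replicate block 370 genes were higher and 975 lower. Lhx8 (-0.82, limma adjusted p = 0.102), Prima1 (-2.60, 0.0598) and Chrm4 (-1.48, 0.0604) were then not called, and Chat (0.0271) and Slc5a7 (0.00328) were. The depth limits Slc18a3 and Chrm5 most, since libraries listed at 0 allow up to 3 fragments.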

Other observations

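Other interneurons of the striatum, which release GABA, were lower in part. Of 6 tested markers 4 were lower (66.7%, beside 9.11% of all genes tested) and 0 higher. The neuropeptide gene Npy averaged 12.4 ± 2.63 FPKM in R6/2 and 30.6 ± 3.49 FPKM in controls (SD, n = 5, log2 change -1.25, limma adjusted p = 0.000308), and Nos1, the neuronal nitric oxide synthase gene, 1.92 ± 0.389 FPKM in R6/2 and 5.02 ± 1.05 FPKM in controls (-1.04, 0.00114). The somatostatin gene Sst showed a log2 change of -0.83 (limma adjusted p = 0.00674), and Kit one of -0.79 (0.0252). Kit was not called with the cortical signal as a covariate (limma adjusted p = 0.0736) or without controls 1 and 3 (0.132), and 3 of the 6 markers were lower under each. Pvalb, which marks fast-spiking interneurons, was at 3.77 ± 1.77 FPKM in R6/2 and 4.38 ± 1.58 FPKM in controls (limma adjusted p = 0.712). Whether these genes changed less or more than the cholinergic genes was not tested.

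Markers of other cells differed in part. Summed FPKM of 5 oligodendrocyte markers was 652 to 1002 in R6/2 and 1441 to 1611 in controls. Of these markers 3 were called lower, Mbp and Mobp among them, and 2 were not called. Mbp was not called with the cortical signal as a covariate (limma adjusted p = 0.0656). For 5 astrocyte markers the sum was 58.2 to 80.5 in R6/2 and 77.7 to 96.1 in controls (1 lower), for 5 microglia markers 27.6 to 32.6 in R6/2 and 34.8 to 47.2 in controls (1 lower), and for 5 endothelial markers 52.9 to 70.0 in R6/2 and 43.2 to 57.7 in controls (1 higher). Slc2a1 gave most of the endothelial sum, with a mean of 46.6 FPKM in R6/2 and 34.0 FPKM in controls. No astrocyte, microglia or endothelial marker was called with the cortical signal as a covariate. Among all genes tested, 9.11% were lower and 5% higher. Choroid plexus markers ran from 25.5 to 451 in R6/2 and from 12.8 to 540 in controls (0 of 3 tested called). Among the cortical markers, Emx1 was listed at 0 in at least 1 library. Their part in the values of the cholinergic genes was not tested.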
